A study of Mus musculus with 3 samples.

Results

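Integrins are surface receptors built from an alpha and a beta subunit, and 10 subunit genes are described here: Itgam, Itgb2, Itgax, Itgal, Itga4, Itgb1, Itga6, Itgb5, Itgb7 and Itgav. They were chosen by symbol from the 27998 genes of the count matrix, and all 10 were found. Itgam encodes Cd11b, the surface protein by which the cells had been sorted, so the sort acted on the product of 1 of these genes. Single cells of the brain without the cerebellum were studied in C57BL6J female mice 5 months old, to follow microglia while the receptor Csf1r was blocked and just after. The untreated group (Ctrl) was 1 animal. A second group (D0) was 2 pooled animals fed PLX5622, an inhibitor of Csf1r that removes microglia, at 1200 mg/kg of diet for 14 days. The last group (D2) was 1 animal given the same diet for 14 days and then control diet for 2 days. Each group was 1 library, and libraries were made with 10x Genomics Chromium 3′ v2 reagents, which count unique molecular identifiers (UMIs) from the 3′ ends of transcripts.

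The matrix held 2149 cell barcodes with a suffix from 1 to 3, and no source used here tied a suffix to Ctrl, D0 or D2. Suffixes are therefore called libraries 1, 2 and 3, and nothing below is a comparison of diets. They held 1263, 599 and 287 cells at median depths of 3662, 6188 and 8172 UMIs, and shared 0 barcode sequences. After filtering, 2137 cells were clustered without any integrin gene and named from marker lists, with the ending "-like". Microglia-like cells were 85.7% of library 1, 8.28% of library 2 and 0.704% of library 3, although the labels call all 3 libraries microglia. The others were border-associated-macrophage-like, monocyte-like, non-classical-monocyte-like, dendritic-like, migratory-dendritic-like, neutrophil-like, NK-like, endothelial-like and mast-or-basophil-like cells, and 1 unnamed cluster of 124 cells in which all 11 cell cycle markers of the table passed the naming rule. The 10 leading genes of that unnamed cluster were headed by Ttr, Ccl12 and Ptn, and 2 of them were listed cell cycle markers. Levels are counts per 1000000 UMIs (CPM), summed over the cells of a class in 1 library, with exact Poisson 95% intervals. The intervals hold only the error of counting, not that between animals, and no p-value was computed.

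Integrins hold leukocytes to vessel walls, matrix and other cells. The beta 2 subunit pairs with Itgam, Itgax and Itgal to make complement and ICAM receptors of leukocytes. Itga4 pairs with Itgb1 to bind VCAM-1 and fibronectin, and with Itgb7 to bind MAdCAM-1. Itga6 with Itgb1 binds laminin, and Itgav with Itgb5 binds vitronectin. In the brain, microglia are known for Cd11b and for high Itgb5, while Itga4 is the target of antibodies that keep blood leukocytes out of the brain.

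Upstream sequence is shown for the sort gene Itgam and for Itgb5 and Itgb7, whose levels had a negative correlation across the classes. RefSeq windows of the 250 bases before the RefSeq start of the gene were given for 7 of the 10 genes (build GRCm38.p6). The capitals mark GAGGAA (the core of PU.1 sites), TGTGGT (the core of RUNX sites) and GGGCGG (the GC box) on either strand, and no match overlapped another in these windows.
Itgam: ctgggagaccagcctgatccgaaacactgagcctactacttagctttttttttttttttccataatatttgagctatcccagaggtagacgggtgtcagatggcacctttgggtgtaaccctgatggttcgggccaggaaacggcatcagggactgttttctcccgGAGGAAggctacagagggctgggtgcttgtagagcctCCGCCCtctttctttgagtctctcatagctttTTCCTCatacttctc
Itgb5: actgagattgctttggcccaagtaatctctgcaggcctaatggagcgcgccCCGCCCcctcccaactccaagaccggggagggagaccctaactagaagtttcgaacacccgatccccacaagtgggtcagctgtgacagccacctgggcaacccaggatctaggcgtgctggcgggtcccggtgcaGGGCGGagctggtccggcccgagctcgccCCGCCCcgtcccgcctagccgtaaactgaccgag
Itgb7: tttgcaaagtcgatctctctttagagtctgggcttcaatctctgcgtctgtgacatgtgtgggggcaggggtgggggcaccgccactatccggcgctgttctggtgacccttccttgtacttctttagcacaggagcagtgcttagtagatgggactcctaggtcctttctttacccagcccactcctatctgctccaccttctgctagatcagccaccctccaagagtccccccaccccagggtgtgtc
The Itgam window lies at chr7:128062390-128062639 on the plus strand, the Itgb5 window at chr16:33829415-33829664 on the plus strand and the Itgb7 window at chr15:102231936-102232185 on the minus strand. In GENCODE, from which the gene positions below are taken, Itgb7 begins at 102231944. The last bases of its window therefore lie inside the gene as placed there. The Itgam window held 2 matches of GAGGAA and 1 GC box, the Itgb5 window 3 GC boxes and 0 of GAGGAA, and the Itgb7 window 0 of the 3 motifs. Among 32851 RefSeq windows of the same length, 23.3% held GAGGAA, 14% TGTGGT and 32.7% GGGCGG. The TATA box letters TATAAA, held by 12.4% of those windows, were in 0 of the 7 windows.

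Itgb5 encodes the beta 5 subunit, and its level was highest in the microglia-like cells. It lies at chr16:33829665-33949338 on the plus strand. Microglia-like cells had 1065 CPM in library 1 (interval 1036 to 1095, 5202 UMIs) and 849 CPM in library 2 (724 to 990, 163 UMIs). Border-associated-macrophage-like cells of library 1 had 703 CPM (650 to 760). The interval of the macrophage-like cells lay below that of the microglia-like cells of the same library, at less than a 2-fold ratio. The unnamed cell cycle cluster followed with 248 CPM in library 2 and 263 CPM in library 3. Its 9 cells in library 1 had 704 CPM (540 to 903, 62 UMIs). Non-classical-monocyte-like cells had 194 CPM (106 to 326) and 78.9 CPM (43.1 to 132) in libraries 2 and 3, and monocyte-like cells 45.2 and 38.2 CPM. In library 2 the order of the first 3 classes was microglia-like, cell cycle cluster and non-classical-monocyte-like, and the last pair overlapped in their intervals. NK-like cells had 0 Itgb5 UMIs among 261622 UMIs in library 2 and 0 in library 3, where 3 UMIs would have been 11.5 and 27.1 CPM.

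After each cell was thinned to 2000 UMIs, 87.5% of the microglia-like cells of library 1 had an Itgb5 UMI (exact Clopper-Pearson 95% interval 85.3 to 89.5) and 79.1% in library 2 (64 to 90). Without thinning the shares were 95.4% and 91.8%. In the NK-like cells of library 2, 0 of 67 thinned cells had one (0 to 5.36%), at a median depth of 3092 UMIs against 3151 UMIs in the microglia-like cells. Itgb5 was thus seen in most microglia-like cells and in none of the NK-like cells of that library. The 13 NK-like cells of library 1 did have 8 Itgb5 UMIs, or 168 CPM (72.5 to 331), beside 5582 CPM of microglia markers. These were in 3 of 13 cells, and in 1 of the 11 that could be thinned.

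Outside the microglia-like and macrophage-like cells, Itgb5 moved with the microglia markers in some classes and not in others. In library 1 the 13 neutrophil-like cells had 557 CPM of Itgb5 and 14909 CPM summed over the 13 microglia markers. In library 2 neutrophil-like cells had 103 CPM beside 3706 CPM of markers, and in library 3 they had 0 UMIs of Itgb5 beside 182 CPM of markers. The 3 neutrophil-like values thus had the same order as the marker level. Per 100 UMIs of microglia markers, there were 2.66 and 3.26 Itgb5 UMIs in the microglia-like cells of libraries 1 and 2. The same ratio was 3.73 and 2.77 in the neutrophil-like cells of libraries 1 and 2, and 3.53, 3.33 and 2.68 in the dendritic-like cells of libraries 1, 2 and 3. It was 5.73 and 5.51 in the cell cycle cluster and 8.64 and 8.97 in the non-classical-monocyte-like cells of libraries 2 and 3. In the monocyte-like cells of these libraries it was 2.98 and 7.05. Their markers were 1515 and 542 CPM, while Itgb5 was 45.2 and 38.2 CPM. The 6 non-classical-monocyte-like cells of library 1 had a ratio of 0.867, on 3 Itgb5 UMIs. The 9 cells of the cell cycle cluster in library 1 had 4.21, on 62 Itgb5 UMIs beside 16740 CPM of markers. Macrophage-like cells of library 1 had 3.35, beside 20961 CPM of markers. Migratory-dendritic-like cells of library 2 had 9.52, on 6 Itgb5 UMIs. The part of microglial RNA in these other classes was not tested.

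**Figure D1:**
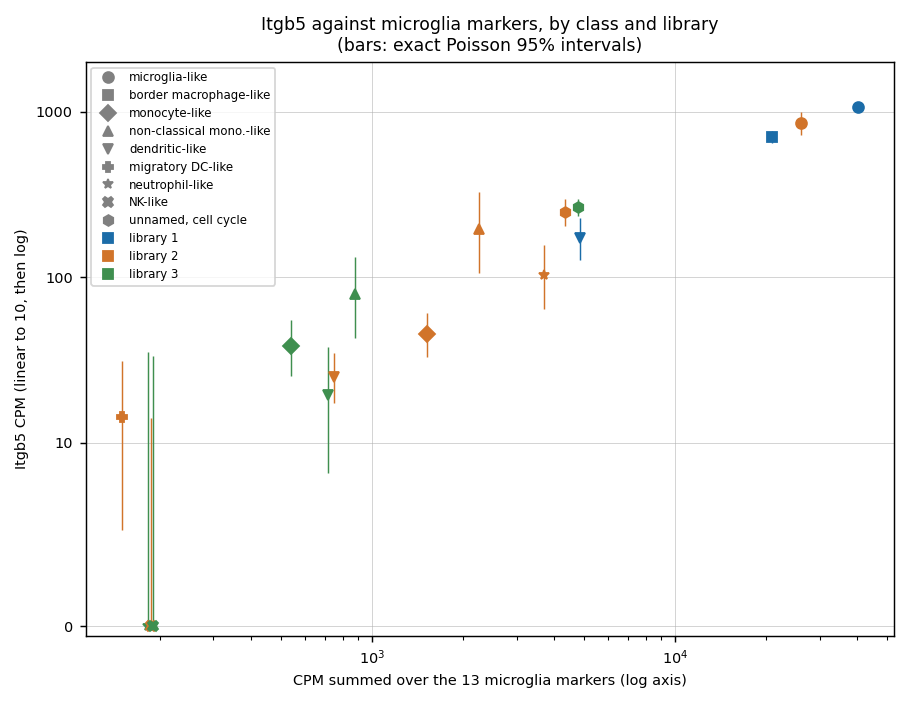
Itgb5 CPM (vertical axis, linear to 10 and then logarithmic) against CPM summed over the 13 microglia markers (horizontal log axis). Each point is 1 class in 1 library with at least 20 cells, shapes give the class, colours the library, and bars are exact Poisson 95% intervals; the microglia-like points lie top right at 1065 and 849 CPM and the NK-like points of libraries 2 and 3 at 0.

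Itgam encodes the alpha M subunit (Cd11b) and lies at chr7:128062640-128118491 on the plus strand. Its level was 259 CPM (245 to 274) in the microglia-like cells of library 1, and those of library 2 had 203 CPM (144 to 278). Border-associated-macrophage-like cells of library 1 had 259 CPM (227 to 294), within the range of the microglia-like cells beside them. Neutrophil-like cells of library 2 had 173 CPM (122 to 238) and those of library 3 had 172 CPM (102 to 272), overlapping with the microglia-like cells of library 2. Monocyte-like cells had 83 and 124 CPM, non-classical-monocyte-like cells 125 and 141 CPM, and NK-like cells 61.2 and 45.2 CPM in libraries 2 and 3. Dendritic-like cells had 77, 46.1 and 79.5 CPM in libraries 1, 2 and 3. The migratory-dendritic-like cells of library 2 had 2 Itgam UMIs among 420356, or 4.76 CPM (0.576 to 17.2), although the sort was for Cd11b protein. Their interval lay below that of the dendritic-like cells, the next in order in library 2. The neighbours above the dendritic-like cells in that order overlapped with each other.

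At 2000 UMIs per cell, 37% of the microglia-like cells of library 1 had an Itgam UMI (34 to 40), 32.6% in library 2 (19.1 to 48.5) and 37.4% of the macrophage-like cells (27.4 to 48.1). Without thinning these shares were 55.6%, 42.9% and 72.5%, at median depths of 3383, 3151 and 8494 UMIs. The share was 6.41% (3.12 to 11.5) in the dendritic-like and 7.46% (2.47 to 16.6) in the NK-like cells of library 2. In the migratory-dendritic-like cells it was 0 of 54 (0 to 6.6%) at a median depth of 7145 UMIs. The sorted cells without an Itgam UMI were thus the majority in each of these classes at this depth, which does not show that they lacked the transcript.

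**Figure D2:**
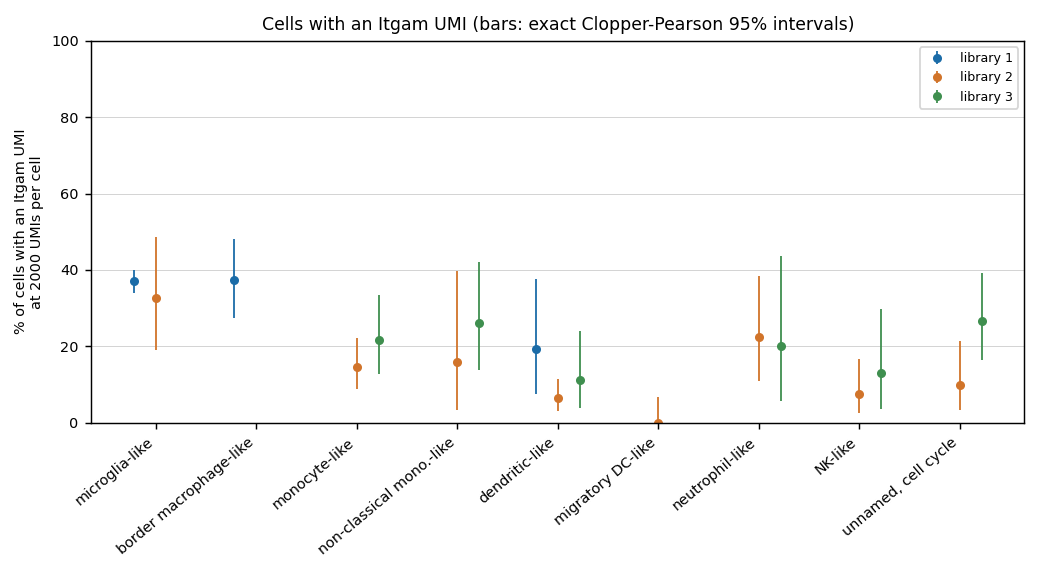
Percent of cells with at least 1 Itgam UMI after thinning to 2000 UMIs per cell, by class (horizontal axis) and library (colours). Bars are exact Clopper-Pearson 95% intervals; the microglia-like and macrophage-like cells of library 1 lie at 37% and 37.4% and the migratory-dendritic-like cells of library 2 at 0%.

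Itgb2 encodes the beta 2 subunit that Itgam, Itgax and Itgal share, and lies at chr10:77530252-77565708 on the plus strand. Microglia-like cells of library 1 had 264 CPM (250 to 279), the highest of the 3 classes with at least 20 cells there. The dendritic-like cells followed at 196 CPM (148 to 255). Classes with fewer cells in library 1 lay on both sides. The 6 non-classical-monocyte-like cells had 712 CPM (428 to 1111) and the 13 NK-like cells 462 CPM (289 to 699). The 9 cells of the cell cycle cluster had 136 CPM (70.4 to 238). In library 2 the microglia-like cells had 229 CPM (167 to 308). NK-like cells had 378 CPM (308 to 461) and 452 CPM (336 to 596) in libraries 2 and 3. Non-classical-monocyte-like cells had 375 CPM (247 to 545) and 659 CPM (545 to 790). In library 2 the NK-like, non-classical-monocyte-like and microglia-like cells overlapped pairwise with their neighbours in this order. Of the classes of library 2 with at least 20 cells, the migratory-dendritic-like cells were again the lowest, at 33.3 CPM (18.2 to 55.9). That lay below the interval of the dendritic-like cells at 137 CPM (118 to 158). Both the sort gene and its beta partner were therefore low in the migratory-dendritic-like cells.

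Itgal encodes the alpha L subunit of LFA-1 and lies at chr7:127296260-127335138 on the plus strand. Non-classical-monocyte-like cells of library 2 had 514 CPM (362 to 708) and those of library 3 had 552 CPM (448 to 673). Every other class with at least 20 cells was lower in the same library and apart in its interval. NK-like cells had 115 and 81.4 CPM, neutrophil-like cells 88.7 and 38.2 CPM and monocyte-like cells 59.9 and 94.2 CPM in libraries 2 and 3. Microglia-like cells had 5 UMIs (1.02 CPM) in library 1 and 0 UMIs in library 2. After thinning, 52.6% and 66.7% of the non-classical-monocyte-like cells of libraries 2 and 3 had an Itgal UMI, against 1 of 1014 microglia-like cells of library 1.

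Itgax encodes the alpha X subunit (Cd11c), known from dendritic cells, and lies at chr7:128129547-128150657 on the plus strand, next to Itgam. In library 2 the NK-like cells had the highest level, at 134 CPM (93.2 to 186), apart from the dendritic-like cells at 56.4 CPM (44.5 to 70.5). In library 3 the non-classical-monocyte-like cells had 124 CPM (77.7 to 188), the dendritic-like cells 62.7 CPM (40.9 to 91.8) and the NK-like cells 54.2 CPM (19.9 to 118), all overlapping in neighbouring pairs. Migratory-dendritic-like cells of library 2 had 9.52 CPM from 4 UMIs. Neutrophil-like cells had 0 UMIs in all 3 libraries. Microglia-like cells had 12 UMIs (2.46 CPM) in library 1 and 2 UMIs (10.4 CPM) in library 2.

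Itga4 encodes the alpha 4 subunit and lies at chr2:79255426-79333123 on the plus strand. Non-classical-monocyte-like cells had 375 and 372 CPM in libraries 2 and 3. Migratory-dendritic-like cells of library 2 had 257 CPM (211 to 310), which overlapped with the former and lay apart from the NK-like cells at 122 CPM (83.7 to 173). Monocyte-like cells had 106 and 116 CPM, and dendritic-like cells 49, 74 and 62.7 CPM in libraries 1, 2 and 3. The microglia-like cells had 3 UMIs among 4883783 in library 1 (0.614 CPM) and 0 in library 2, where 3 UMIs would have been 15.6 CPM. In library 1, the border-associated-macrophage-like cells had 26 Itga4 UMIs, or 28.4 CPM (18.5 to 41.6). Without thinning 20.9% of these macrophage-like cells had an Itga4 UMI against 0.278% of the microglia-like cells, and with thinning 4.4% against 0.296%.

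Itgb7 encodes the beta 7 subunit and lies at chr15:102215995-102231944 on the minus strand. Its levels had a Pearson r of -0.53 with those of Itgb5 over the 17 units of class and library with at least 20 cells. This was not particular to the pair, since r was -0.57 for Itgb7 with Itga6. Migratory-dendritic-like cells of library 2 were low in both Itgb7 and Itgb5, the latter at 14.3 CPM. Dendritic-like cells had 238, 226 and 217 CPM in libraries 1, 2 and 3, with overlapping intervals. NK-like cells had 268 and 262 CPM and monocyte-like cells 148 CPM (125 to 175) and 264 CPM (228 to 303) in libraries 2 and 3. The 2 monocyte-like intervals lay apart at less than a 2-fold ratio. Microglia-like cells had 3 UMIs (0.614 CPM) in library 1 and 0 in library 2, and macrophage-like cells 4 UMIs (4.37 CPM). Migratory-dendritic-like cells of library 2, at 28.5 CPM (14.8 to 49.9), lay below the dendritic-like cells, although their Itga4 level was higher. Neutrophil-like cells had 2 UMIs in library 2 and 1 UMI in library 3.

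Itgb1 encodes the beta 1 subunit, the partner of Itga4 and Itga6, and lies at chr8:128685654-128733200 on the plus strand. It was counted in every class with at least 20 cells. NK-like cells had 260 CPM (202 to 330) and 362 CPM (258 to 492) in libraries 2 and 3, non-classical-monocyte-like cells 208 and 192 CPM, and migratory-dendritic-like cells 200 CPM in library 2. Microglia-like cells of library 1 had 108 CPM (99.1 to 118) and those of library 2 had 104 CPM (63.6 to 161). Neutrophil-like cells were the lowest, at 32.7 CPM (7 UMIs) in library 2 and 9.55 CPM (1 UMI) in library 3.

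Itga6 encodes the alpha 6 subunit and lies at chr2:71745616-71858416 on the plus strand, and Itgav encodes the alpha V subunit at chr2:83724397-83806916 on the plus strand. Itga6 followed Itgb5 across the classes with at least 20 cells. It had 106 CPM (97.5 to 116) and 72.9 CPM (39.9 to 122) in the microglia-like cells of libraries 1 and 2 and 98.3 CPM (79 to 121) in the macrophage-like cells. In library 2 the other classes with at least 20 cells had between 3.66 and 13.9 CPM of Itga6. The 12 endothelial-like cells had 9 Itga6 UMIs in all, 4 in library 1 and 5 in library 2. These were 297 CPM (81 to 761) and 189 CPM (61.5 to 442), higher than in the microglia-like cells but with overlapping intervals. Itgav had 49.1 and 36.5 CPM in the microglia-like cells and 41.5 CPM in the macrophage-like cells. It also had 41.7 and 39.4 CPM in the non-classical-monocyte-like cells of libraries 2 and 3, overlapping with the microglia-like cells.

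**Figure D3:**
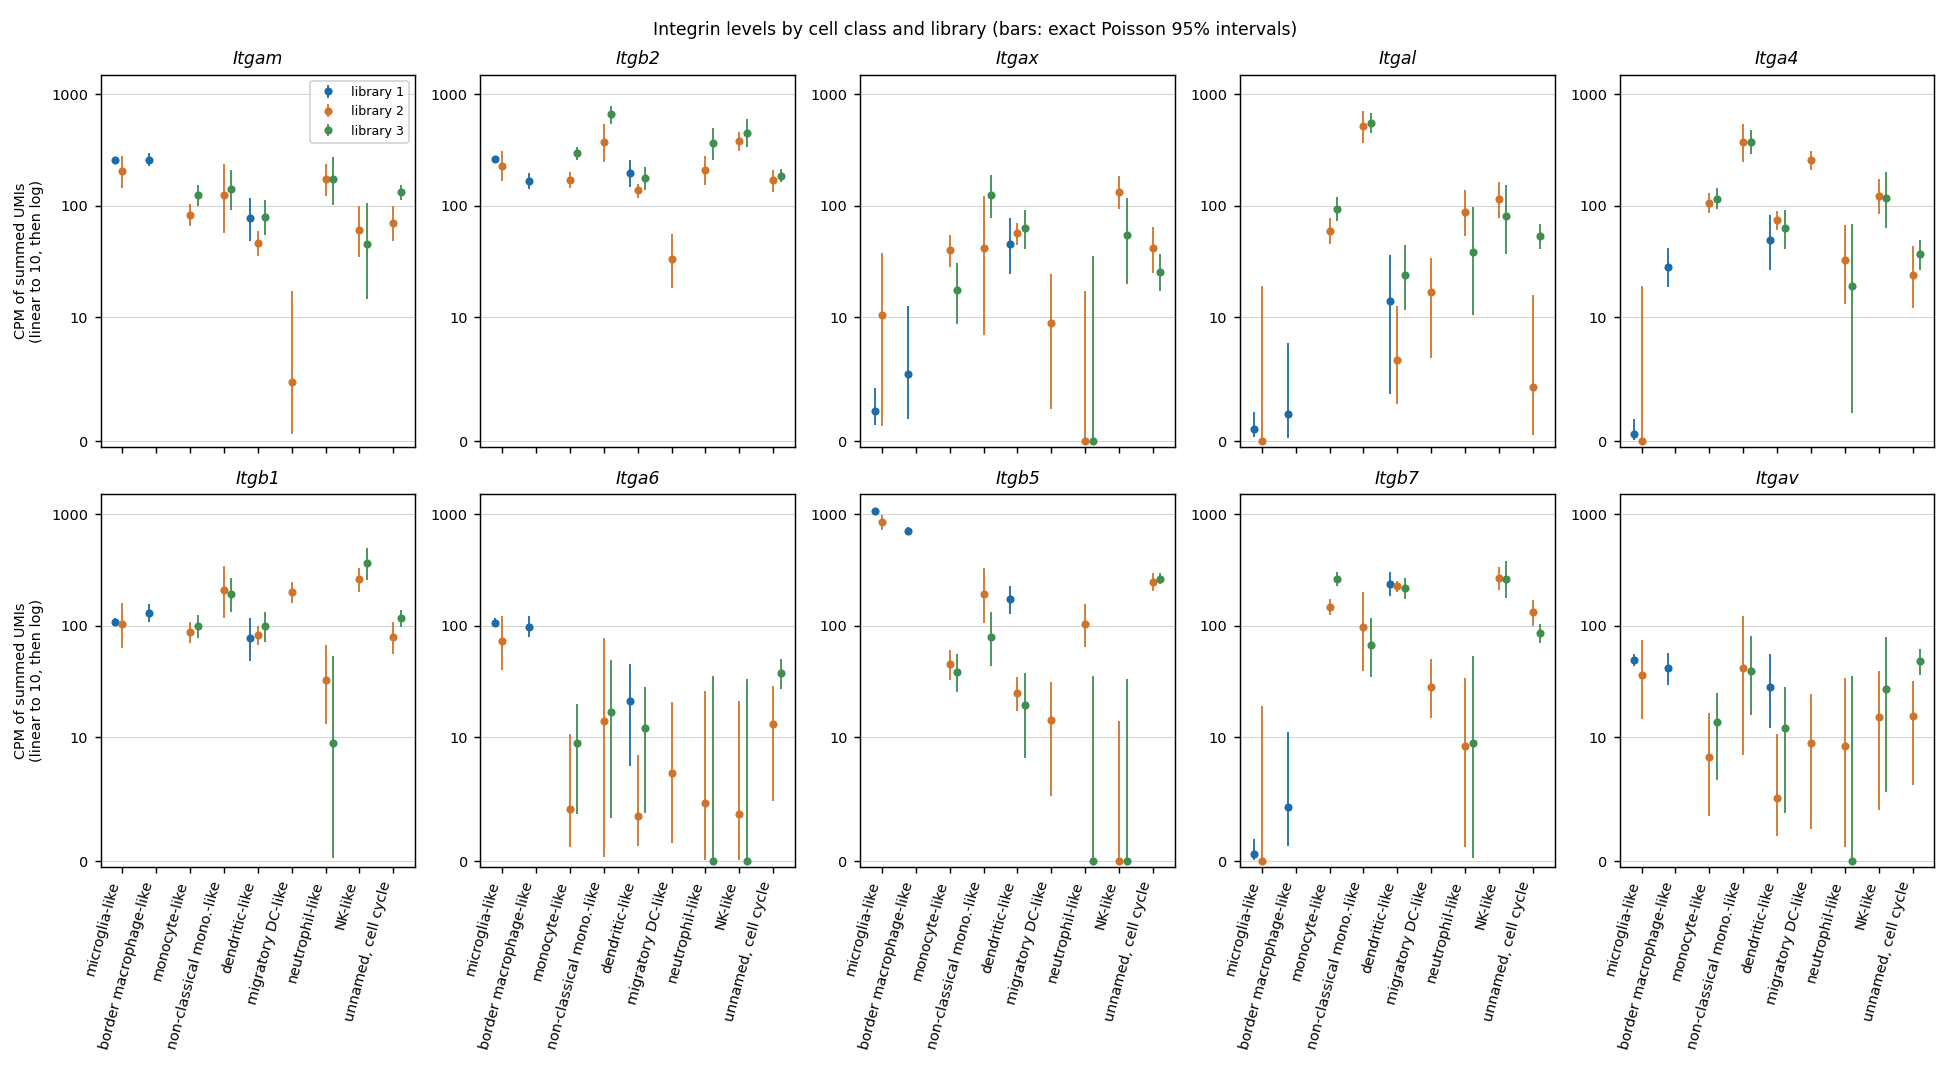
CPM of each integrin gene (panels; vertical axis linear to 10 and then logarithmic) by class and library (colours), for classes with at least 20 cells in a library. Points are sums over cells and bars exact Poisson 95% intervals; Itgb5 and Itga6 are highest in the microglia-like and macrophage-like cells, where Itgal and Itgb7 are near 0; Itga4 is near 0 in the microglia-like cells and at 28.4 CPM in the macrophage-like cells.

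To compare classes gene by gene, each class was set against the microglia-like cells of the same library. A gene was called higher or lower at a CPM ratio of at least 2 with Poisson intervals that did not overlap, and it was tested where both arms together had 20 UMIs. The rate of calls over all genes tested is given beside each count. In library 1, 1 of the 10 integrins was called higher in the macrophage-like cells, where 3.92% of 9512 genes were, and 0 were called lower, where 1.35% of genes were. That gene was Itga4, with a log2 ratio of 5.53 (3.82 to 7.90) that rests on 3 UMIs in the microglia-like cells. Of the other 6 integrins tested, Itgb2 (167 against 264 CPM, log2 ratio -0.66, -0.91 to -0.42) and Itgb5 (log2 ratio -0.60, -0.72 to -0.48) were lower in the macrophage-like cells with intervals apart, at less than 2-fold.

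In the dendritic-like cells of library 1, Itgax and Itgb7 were called higher and Itgam, Itga6 and Itgb5 lower, against 6.33% and 13.4% of all genes. Itga4 had too few UMIs to be tested there, at 49 against 0.614 CPM (log2 ratio 6.32, 4.48 to 8.76). Itgb7 was 238 against 0.614 CPM, a log2 ratio of 8.60 (6.99 to 10.91), and Itgb5 172 against 1065 CPM, a log2 ratio of -2.63 (-3.07 to -2.23). In library 2 the dendritic-like cells had Itgax, Itga4 and Itgb7 called higher (8.82% of genes) and Itgam and Itgb5 lower (12.3%). Itgb7 and Itga4 were at least 14.5-fold and 4.73-fold higher there, taken against 3 UMIs. The call of Itgax in library 2, at 56.4 against 10.4 CPM on 2 UMIs (log2 ratio 2.44, 0.53 to 5.51), was lost under 5 of 12 other settings. Itgb7, Itgam and Itgb5 thus had the same call in both libraries.

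In the monocyte-like cells of library 2, Itgal, Itga4 and Itgb7 were called higher, by at least 3.83-fold, 6.79-fold and 9.48-fold, and Itgam and Itgb5 lower. Of all genes 11.5% were called higher and 10.9% lower in that comparison. The log2 ratio of Itgam was -1.29 (-1.86 to -0.70) and that of Itgb5 -4.23 (-4.75 to -3.74). Non-classical-monocyte-like cells had Itgal and Itga4 called higher, by at least 32.9-fold and 24-fold, and Itgb5 called lower, against 14.1% and 13.5% of genes. Itgam was not called in them, at 125 against 203 CPM.

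The NK-like cells of library 2 had the most calls, with Itgax, Itgal, Itga4, Itgb1 and Itgb7 higher and Itgam and Itgb5 lower. The rates over all genes were 18.3% and 14.6%. Itgb5 was at least 74-fold lower and Itgb7 at least 17.1-fold higher, and Itgb1 had a log2 ratio of 1.32 (0.58 to 2.12). The call of Itgb1 was lost when the microglia-like cluster led by Cd63 and Cst7 was left out, at 260 against 134 CPM. In the migratory-dendritic-like cells Itga4 was called higher, by at least 16.4-fold, and Itgam, Itgb2 and Itgb5 lower (16.2% and 18% of genes). They were the 1 class in which Itgb2 was called, with a log2 ratio of -2.78 (-3.77 to -1.89). The log2 ratio of Itgam there was -5.42 (-8.51 to -3.47).

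Neutrophil-like cells of library 2 had 0 integrins called higher and Itgb5 called lower, where 13% and 25.1% of genes were called, at a log2 ratio of -3.05 (-3.76 to -2.40). In the cell cycle cluster of library 2, Itgb7 was called higher, by at least 8.43-fold, and Itgam, Itga6 and Itgb5 lower, where 14.6% and 8.61% of genes were called. Itgb5 was called lower in all 7 comparisons of library 2 and Itgam in 5 of them. Between 4 and 8 of the 10 integrins reached 20 UMIs in a comparison, so a member without a call may have been too sparse. Itga6 was tested in the cell cycle cluster alone. In the other classes compared it was untested, at between 3.66 and 13.9 CPM against 72.9 CPM in the microglia-like cells. The shared microglia-like arm in library 2 had 49 cells and 191963 UMIs. Of these cells, 25 were in the cluster led by Cd63 and Cst7.

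Within the microglia-like cells 3 clusters were seen. The first was led by P2ry12 and other homeostatic markers, the next by Hk2, Adamts1 and Ccl3, and the last by Cd63, Cst7 and cathepsin genes, with 0 microglia markers among its 10 leading genes. In library 1 they held 644, 415 and 22 cells, and Cst7 was 14.6, 11.1 and 124 CPM. In library 2 they held 12, 12 and 25 cells. In library 2 Cst7 was 125 CPM (60 to 230) in the last cluster and 141 CPM (67.7 to 260) in the Ccl3-led cluster. The 2 cells of library 3 in the last cluster had 1291 CPM. Cst7 is thus a label for that cluster and did not set it apart from the Ccl3-led cluster in library 2. Itgb5 was 1063 CPM (1021 to 1107), 1072 CPM (1033 to 1113) and 891 CPM (697 to 1122) in the 3 clusters of library 1. Over the same clusters P2ry12 was 5821, 4271 and 2450 CPM. P2ry12 leads the first cluster and the integrins were left out of the clustering, so the spreads of these genes cannot be compared. Itgb2 was 247, 280 and 235 CPM and Itga6 102, 110 and 111 CPM, with overlapping intervals for both genes.

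Of the integrins, 0 were called between the Ccl3-led and the P2ry12-led cluster in either direction, where 1.65% of genes were. In the Cst7-led cluster of library 1, Itgam was called lower, at 111 CPM (50.9 to 211, 9 UMIs) against 250 CPM (230 to 272), where 2.96% of genes were called lower. In library 2 the same cluster had 225 CPM of Itgam (134 to 356, 18 UMIs), so the lower level was seen in 1 of the 2 libraries. Between the 2 libraries 0 integrins were called within that cluster, where 5.54% of genes were.

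**Figure D4:**
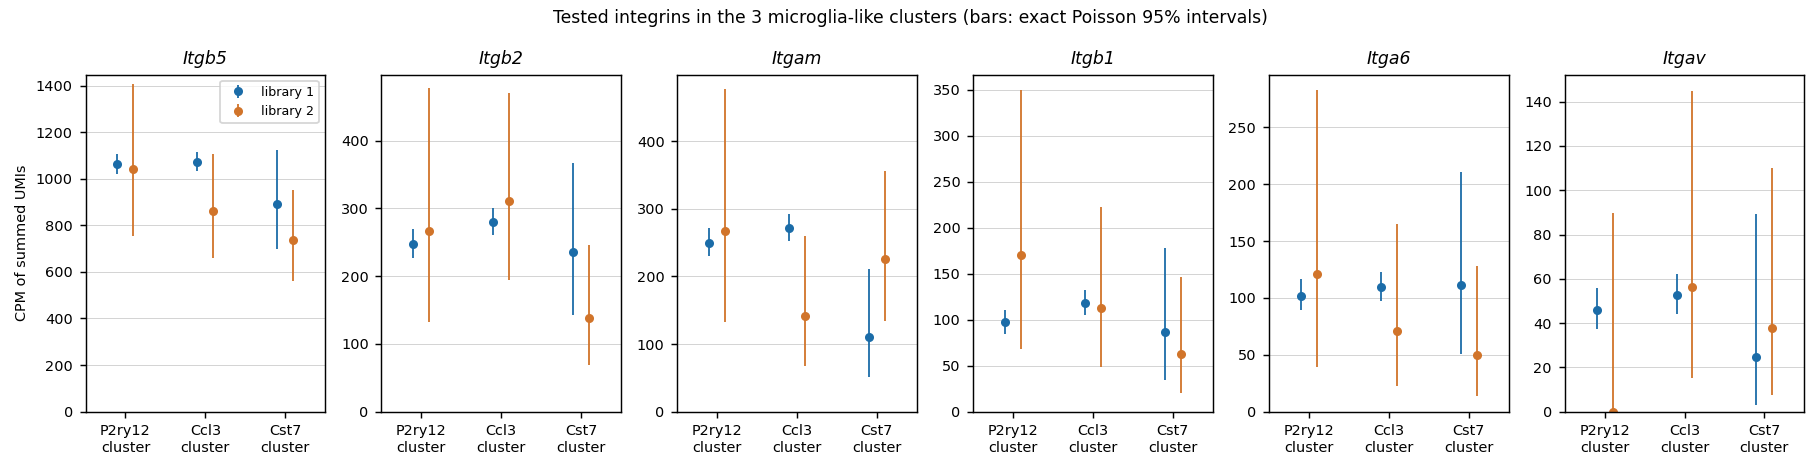
CPM (linear axis) of the 6 integrins tested between libraries within microglia-like cells, in the P2ry12-led, Ccl3-led and Cst7-led clusters of libraries 1 and 2 (colours). Bars are exact Poisson 95% intervals; Itgb5 lies between 738 and 1072 CPM in every cluster, and Itgam of the Cst7-led cluster is at 111 CPM in library 1 and 225 CPM in library 2.

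Between the microglia-like cells of libraries 2 and 1, 0 of the 6 integrins tested were called, where 3.9% of genes were called in either direction. Itgb5 was 849 against 1065 CPM, with intervals apart at less than a 2-fold ratio. Itgam (203 against 259 CPM), Itgb2 (229 against 264), Itgb1 (104 against 108), Itga6 (72.9 against 106) and Itgav (36.5 against 49.1) overlapped in their intervals. Summed over the microglia-like cells of libraries 1 and 2, markers of classical monocytes came to 17.2 and 36.5 CPM, NK markers to 6.14 and 31.3 CPM and neutrophil markers to 232 and 969 CPM. Those of dendritic cells came to 1147 and 1573 CPM, of migratory dendritic cells to 618 and 380 CPM and of non-classical monocytes to 331 and 240 CPM. The part of such RNA in the levels here was not tested. Of the lists, 7 of 9 classical monocyte markers and 6 of 11 NK markers had a UMI in library 1, and 4 and 5 in library 2, while Ccr2, Ncr1 and Prf1 had 0 UMIs in library 2. The microglia markers summed to 40067 and 26078 CPM. Itgax had too few UMIs to be tested here, but it was called higher in library 2, at 33.8 to 48.3 CPM, when any 1 of 4 choices of cell filter or clustering was changed. Each of these 4 settings reran the clustering, so the cells named microglia-like were not held fixed. Whether the higher Itgax came from cells newly placed in the class was not tested.

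Between libraries 3 and 2, integrin levels within a class mostly overlapped. At less than a 2-fold ratio, intervals lay apart for Itgb2 and Itgb7 in the monocyte-like cells and for Itgam in the cell cycle cluster. That Itgb2 level was 295 CPM (257 to 337) in library 3 against 170 CPM (145 to 199) in library 2. The Itgam level was 132 CPM (112 to 154) against 70.2 CPM (48 to 99.1). In the monocyte-like, non-classical-monocyte-like, dendritic-like and NK-like cells 0 integrins were called in either direction, where 6.55%, 4.32%, 3.31% and 1.42% of genes were. In the neutrophil-like cells Itgb5 was called lower in library 3, by at least 3.58-fold, where 13.4% of genes were called lower. In the cell cycle cluster Itgal and Itgav were called higher in library 3, where 4.98% of genes were. Itgal was 53 against 4.39 CPM, a log2 ratio of 3.59 (1.68 to 6.67), and Itgav 47.9 against 15.4 CPM, a log2 ratio of 1.64 (0.50 to 3.02). That cluster had a median depth of 16228 UMIs in library 3 and 8472 UMIs in library 2.

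Over all cells of a library, whatever their class, Itgam was 245, 70.2 and 119 CPM in libraries 1, 2 and 3. Itgb5 was 938, 99.6 and 133 CPM, and Itgb7 19.1, 153 and 157 CPM. Itgax, Itgal, Itga4 and Itgb7 were called higher and Itgam, Itga6, Itgb5 and Itgav lower in library 2 than in library 1, where 12.9% and 23.8% of genes were called. Between library 3 and library 1 the same genes except Itgav were called, where 13% and 22.2% of genes were. The 3 libraries also differed in their share of microglia-like cells, and the level in a library and this share cannot be told apart in these totals.

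Levels across the 17 units of class and library with at least 20 cells were also correlated with those of 5984 other genes, as log2(CPM + 10). These are descriptions, since the units come from 3 libraries and differ in depth. The closest genes to Itgb5 were C1qc, Cx3cr1 and Rnase4, each with a Pearson r of 0.98, and Cx3cr1 is one of the microglia markers. Itga6 was closest to Dtx4 (0.95), Rab3il1 and Npl (both 0.94). Itgam was closest to Tnfrsf1a (0.92), Tnfaip8l2 (0.90) and Fermt3 (0.88), and Fermt3 encodes kindlin-3, which binds beta integrin tails. Itgb2 was closest to Ptpre, Sash3 (both 0.88) and Fcer1g (0.85). The genes closest to Itgal included Adgre5 (0.93) and Prr13 (0.89), and those closest to Itga4 included Cytip (0.89) and Nabp1 (0.88). Itgb7 was closest to Ahnak (0.98), Pfkp and H2afy (both 0.94). Itgax was closest to Nop10, Fyn (both 0.85) and Hnrnpa3 (0.84), Itgb1 to genes that included Ilkap (0.91) and Med10 (0.90), and Itgav to Man1a2 (0.91), Abi3 and Slc38a10 (both 0.90). Among the integrins themselves, r was 0.90 for Itgb5 with Itga6, 0.80 for Itgb7 with Itgax and 0.76 for Itga4 with Itgal. Between subunits known to pair, r was 0.55 for Itgam, 0.31 for Itgax and 0.57 for Itgal with Itgb2. It was 0.51 for Itga4 and 0.11 for Itga6 with Itgb1, 0.58 for Itga4 with Itgb7, and 0.69 for Itgav with Itgb5.

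Of 17 other integrin subunits, 7 had at least 20 UMIs over all cells. Itgb2l, a relative of Itgb2, was seen in neutrophil-like cells at 118, 173 and 344 CPM in libraries 1, 2 and 3, and was at least 11-fold higher there than in the microglia-like cells of library 2. Itga9 had 90 of its 110 UMIs in the microglia-like cells of library 1, at 18.4 CPM (14.8 to 22.7). Itgb3, another partner of Itgav, had 9.21 CPM in these cells and 10.9 CPM in the macrophage-like cells beside them. Itga1 was seen in NK-like cells at 38.2 and 63.3 CPM in libraries 2 and 3, and Itgb8 in the migratory-dendritic-like cells of library 2 at 23.8 CPM (11.4 to 43.7). Itgae had 10.3 CPM in the dendritic-like cells of library 2 and Itga5 20.5 CPM in the cell cycle cluster of library 3. Itga11 and Itgb6 had 0 UMIs.

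Genes that activate integrins or link them to actin were followed in a list of 27. Against the microglia-like cells of library 2, the non-classical-monocyte-like cells had 7 called higher and 0 lower of 12 tested (14.1% and 13.5% of all genes), with a median log2 ratio of 1.38 against 0.09 over all genes tested. They included Tln1 (talin, 319 against 78.1 CPM), the GTPase Rap1b (1111 against 287 CPM) and Fyb, an adaptor of the same pathway (722 against 328 CPM). Rasgrp2, the exchange factor for Rap1, was at least 17.8-fold higher, and the kinase gene Fgr was 375 against 5.21 CPM, on 1 UMI (log2 ratio 6.17, 3.57 to 11.52). The migratory-dendritic-like cells had 1 called higher, Cd47, and 5 lower of 12, Fermt3, Apbb1ip, Fyb and Lims1 among them (16.2% and 18% of all genes), with a median of -0.42 against 0.06. Fermt3 was 26.2 against 125 CPM and Apbb1ip, which encodes the Rap1 effector RIAM, 52.3 against 281 CPM.

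In the monocyte-like cells Rasgrp2, Fgr and Cd47 were called higher and Apbb1ip lower of 19 tested, beside 11.5% and 10.9% of all genes. In the dendritic-like cells of library 2 Cd47 was higher and Apbb1ip and Fyb lower of 19, beside 8.82% and 12.3%. NK-like cells had Tln1 and Cd47 higher and 2 genes lower of 13, Skap2 among them (18.3% and 14.6% of all genes), and neutrophil-like cells Rasgrp2 higher and 0 lower of 12 (13% and 25.1%). The macrophage-like cells of library 1 had 0 called of 21 (3.92% higher and 1.35% lower over all genes), with a median of -0.07 against -0.04. In the dendritic-like cells of library 1, Fgr was called higher and Tln2, Fermt3, Apbb1ip, Fyb and Parvg lower of 21, beside 6.33% and 13.4% of all genes. Between the microglia-like cells of libraries 2 and 1, Parvg (gamma parvin) was called lower in library 2 of 20 tested, where 3.9% of all genes were called in either direction, at 10.4 against 115 CPM on 2 UMIs (log2 ratio -3.46, -6.51 to -1.60).

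Integrin ligands were followed in a list of 19. F11r, which encodes JAM-A, was called lower than in the microglia-like cells in all 7 comparisons of library 2, where between 8.61% and 25.1% of all genes were called lower. It was 120 CPM in the microglia-like cells, 22.7 CPM in the dendritic-like cells and 0 UMIs in the NK-like cells. Icam1, a ligand of the beta 2 integrins, was 125 CPM in the microglia-like cells of library 2 and was called lower in monocyte-like (45.2 CPM), dendritic-like (35.9 CPM) and neutrophil-like cells (9.33 CPM) and in the cell cycle cluster (43.9 CPM). Tgfb1, whose latent form is bound by alpha V integrins, was 365 CPM in the microglia-like cells and was called lower in the neutrophil-like (121 CPM), NK-like (115 CPM) and migratory-dendritic-like cells (59.5 CPM). Nrros, which holds latent TGF-beta on microglia, was called lower in the neutrophil-like and NK-like cells, at 51.3 and 26.8 against 156 CPM. Fibronectin, encoded by Fn1, was at least 8.54-fold higher in monocyte-like cells, and Thbs1 was 104 CPM in these and 420 CPM in neutrophil-like cells against 10.4 CPM, where 11.5% and 13% of all genes were called higher.

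In the macrophage-like cells of library 1, Vcam1 (91.7 against 26.6 CPM), Vtn, Spp1 and Thbs1 were called higher and Jam3 lower (16.4 against 35.2 CPM) of 9 ligand genes tested, beside 3.92% and 1.35% of all genes. Vcam1 is the ligand of Itga4, which was called higher in the same cells. Within the microglia-like cells of library 1, Vcam1 was called higher in the Ccl3-led than in the P2ry12-led cluster, at 36.4 against 15.5 CPM, where 1.65% of all genes were called in either direction. Nrros was called lower in the Cst7-led cluster, at 61.9 against 195 CPM, where 2.96% of all genes were. Spp1, osteopontin, had 443 CPM in the cell cycle cluster of library 2 and 0 UMIs in the microglia-like cells beside it. Vtn, vitronectin, the ligand of Itgav with Itgb5, was 389 CPM in the dendritic-like cells of library 1 and 0.614 CPM in the microglia-like cells on 3 UMIs (log2 ratio 9.30, 7.72 to 11.60). It was not among the ligands called in the dendritic-like cells of library 2.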

How the data were processed

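The deposited values are UMI counts per gene and cell in 1 matrix. Per the submitters' processing notes Cell Ranger 2.0.1 and mm10 were used, and the rule by which barcodes were called cells is not given in the sources used here. Cells with at least 500 genes and at most 10% mitochondrial counts were kept. Scrublet at an expected rate of 5% called 7 of 2144 cells doublets (0.326%), a low yield, so doublets may remain. Log-transformed counts per 10000 were used, and 2000 variable genes without any integrin gene gave 30 components, 15 neighbours and 13 Leiden clusters at resolution 0.5 (scanpy 1.11.5, igraph 0.11.9). A marker passed when at least 30% of a cluster's cells had a UMI and its CPM reached 2 times the median of the clusters. A class took 3 passing markers or more, and the most markers among the 10 leading genes decided, then the share of the list. A cluster with more leading markers of another list stayed unnamed. The rule was settled after the clusters had been seen, and it was run with 19 marker lists. The shares of cells are for cells with at least 2000 UMIs, which left out 106 cells. In medians of log2 ratios a count of 0 stands at 3 UMIs, and such a gene has a fold only as "at least". Named genes were the 10 members, other subunits with at least 20 UMIs, list genes called in a comparison (up to 6 per list and comparison, by ratio) and the 3 genes with the closest pattern to each member. Some genes that this rule names are not reported here. The calling script was tested on simulated data. The 10 genes and the lists were chosen with earlier results of these data known. Gene positions are from GENCODE vM21 (GRCm38, the same build as mm10). No column of per-sample values was left unused. Ctrl, D0 and D2 were not compared. Samples were not replicated, and the alternatives tried were clustering, filter, scaling and calling choices.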

Additional observations from a re-analysis of the deposited data

Results flagged for a closer look

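A second row of the matrix also carries the symbol Itgam, under another Ensembl identifier, and was left out of the levels given for Itgam. It held 49 UMIs over all libraries, 30 in library 1, 13 in library 2 and 6 in library 3, against 2198 UMIs on the main Itgam row. In GENCODE vM21 this identifier is named Gm49368 and lies at chr7:128062683-128128160 on the plus strand, overlapping Itgam on the same strand. Whether reads of the shared stretch were split between the rows was not tested. With the rows added together, Itgam in the microglia-like cells was 264 CPM in library 1 and 203 CPM in library 2, and no call of an integrin changed.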

How the results depend on the processing

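No paired analysis was possible because each group is 1 library and no source used here ties a library to a group. The 31 single ratios called against the microglia-like cells, the cell cycle cluster left out, were each recomputed under 12 settings. Of these 372 values 0 reversed, 14 were no longer called, and 21 of the ratios kept their call in every setting. Among the ratios without a call, 72 values over these settings were newly called. The minimum of 50 UMIs in both arms removed 8 of the 14, and Itgax of the dendritic-like cells in library 2 was lost under 5 settings. Over 6 classes of library 2, 14 integrin calls were higher and 11 lower, and over 2 classes of library 1, 3 and 3. With at least 50 UMIs the higher calls were 9 in library 2 and 1 in library 1. With any fold the lower calls in library 1 were 5. With all libraries pooled the lower calls were 23 and the higher calls 5, in place of those of libraries 2 and 1. Between the microglia-like cells of libraries 2 and 1, 1 integrin was called at resolution 1.0, with at least 1000 genes, with at most 5% mitochondrial counts and with doublets kept (Itgax in each), and 1 with any fold (Itgb5). The settings with an Itgax call reran the clustering, so the cells named microglia-like were not held fixed. Pooled Itgam in microglia-like cells, 256 CPM, was 236 as the mean of per-cell CPM, 317 without mitochondrial, ribosomal protein genes and Malat1, and 193 without library 1. Pooled Itgb5, 1054 CPM, was 1302 and 799 in the last pair of settings. The pooled share of microglia-like cells with an Itgam UMI was 36.7% thinned and 55% without thinning. Leaving out the Cst7-led cluster and adding the Itgam rows together were chosen after seeing the data. Depth limits the sparse members, since 3 UMIs are 15.6 CPM in the microglia-like cells of library 2 and 0.614 CPM in those of library 1.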
